A study of Drosophila melanogaster with 34 samples.

Results

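The heads of female Drosophila melanogaster kept on low-nutrient food were compared with those kept on 1x food for 2′-O-methylation of ribosomal RNA (rRNA). The comparison takes in every library labelled with either food, 8 of the 34 libraries of the series, and all 72 rRNA sites of the tables. Low-nutrient heads came from flies kept for 10 days on a diet labelled as 0.25x in sugar with no a.a. (4 libraries). The 1x heads came from flies kept for 10 days on home-made food at 1x strength (4 libraries). Strain, genotype and age of the flies, the remaining ingredients of either food and the number of heads in a library are not stated in the labels. The tables hold rRNA sites alone, so the tissue label could not be set against marker genes. Nothing in the labels says that the replicates of a food were separate pools of flies, so each p-value measures only the spread between these libraries, which may be technical.

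Most 2′-O-methyl groups on rRNA are placed by box C/D small nucleolar ribonucleoproteins. In these particles a guide RNA pairs with the rRNA and so picks the nucleotide, and Fibrillarin transfers the methyl group to its ribose. RiboMeth-seq reads the mark from alkaline hydrolysis: a methylated ribose protects the neighbouring bond, so few sequenced fragments begin or end there. The deposited level score sums this up for each site, on a scale that ends at 1, the value of full protection. The 18S rRNA carries 24 of the 72 sites, the 28S rRNA 47 and the 5.8S rRNA 1. Sites are written as the rRNA, the methylated base with an m, and the position within that rRNA as numbered in the tables, so 18S Am469 is a 2′-O-methyladenosine of 18S rRNA. By the tables' annotation, 59 sites have at least 1 guide RNA, 11 have an unknown guide and 2 carry the name of a methyltransferase.

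Before the sites are compared, 1 library has to be set apart. The log2 balance of 5′ to 3′ read ends, summed over the 72 sites, was -0.19, -0.22, -0.10 and -1.002 in low-nutrient replicates 1 to 4, and -0.22, -0.24, -0.14 and -0.52 in 1x replicates 1 to 4. Low-nutrient replicate 4 lay below the other 7 libraries and also below the 18 other head libraries of the series, which ran between -0.57 and 0.12. The excess was in 3′ ends: this library had 3.18 of them per 1000 reads of coverage, where the other 7 food libraries had 1.72 to 2.16 and the 18 other head libraries 1.59 to 2.62. Its score was the lowest of the 8 food libraries at 39 of 72 sites, and it lay more than 0.02 below the mean of the other low-nutrient libraries at 22 sites and more than 0.02 above it at 1. The largest such departures were at 18S Am425 (-0.0722), 28S Um[Psi]2692 (-0.0709) and 28S Cm3480 (-0.0612). Values that this library moved are therefore given with and without it. Median coverage over the sites was 74202.5, 60087.5, 58031 and 53187.5 reads in low-nutrient replicates 1 to 4, and 61644.5, 70875.5, 79102 and 58074.5 reads in 1x replicates 1 to 4. Coverage of a single site ran from 322 to 274869 reads.

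Across the whole rRNA the foods were close. The mean score over the 72 sites was 0.948, 0.948, 0.953 and 0.935 in low-nutrient replicates 1 to 4, and 0.947, 0.952, 0.949 and 0.946 in 1x replicates 1 to 4. The groups overlapped. The means were 0.946 ± 0.00739 on low-nutrient food and 0.949 ± 0.00264 on 1x food (SD, n = 4 each). The difference of -0.00260 did not pass an exact permutation test (two-sided p = 0.714, where the smallest p the design allows is 0.0286). With that library left out the low-nutrient mean was 0.949 ± 0.00274 (SD, n = 3) and the difference 0.000921 (exact p = 0.600). The balance of read ends did not separate the foods either, with a difference of -0.10 on the log2 scale (exact p = 0.886), and 0.11 without that library (exact p = 0.343).

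**Figure D1:**
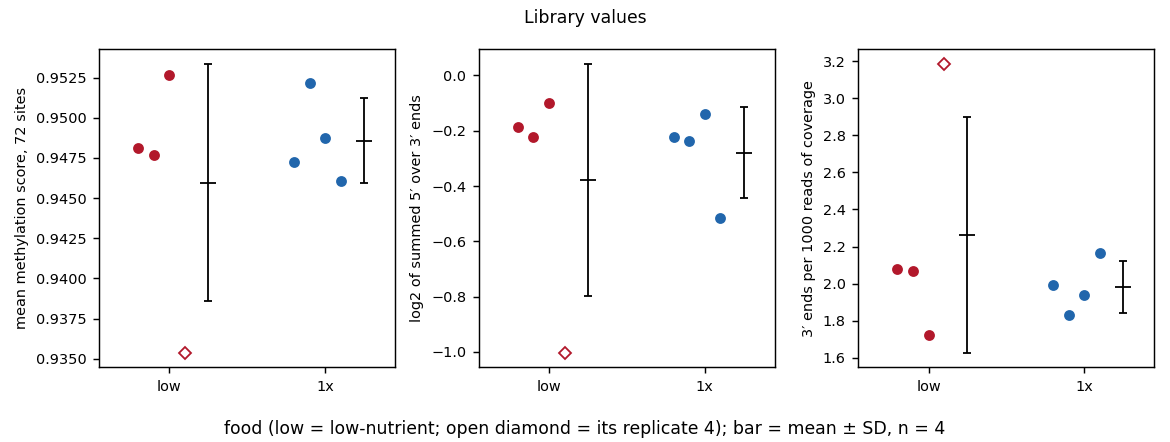
Values of each food library, with low-nutrient libraries left of 1x libraries: the mean score over 72 sites, the log2 balance of 5′ to 3′ read ends, and 3′ ends per 1000 reads of coverage. Points are libraries, bars are mean ± SD, and the open diamond is low-nutrient replicate 4, which had the lowest balance (-1.002) and the most 3′ ends (3.18 per 1000 reads).

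Site by site, 3 of 72 sites passed the test, all lower on low-nutrient food (limma, Benjamini-Hochberg adjusted p under 0.05 over the 72 sites; 4.17% of sites lower and 0% higher). They were 18S Am469, 28S Gm3324 and 28S Gm789, and the same 3 passed without low-nutrient replicate 4. No site passed as higher. At an unadjusted p under 0.05 the limma test gave 5 sites lower and 6 higher, and 6 and 8 without low-nutrient replicate 4. The calls were thin: 1 of the 3 remained without low-nutrient replicate 1, without low-nutrient replicate 2 or without 1x replicate 4, namely Am469 each time. No site passed on the log2 odds of the score, without both libraries numbered 4, or in 1 fit of all head libraries but low-nutrient replicate 4.

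The largest fall was at 18S Am469, for which the tables list 2 guide RNAs. Its score was 0.795, 0.780, 0.788 and 0.781 in low-nutrient replicates 1 to 4, and 0.826, 0.846, 0.825 and 0.833 in 1x replicates 1 to 4. Every low-nutrient library lay below every 1x library, and low-nutrient replicate 4 sat among its own group. The score fell to 0.786 ± 0.00721 on low-nutrient food, against 0.832 ± 0.00963 on 1x food (SD, n = 4 each), a difference of -0.0466 with a 95% interval from -0.0595 to -0.0336 (limma, adjusted p = 0.00281). The value was -0.0448 without low-nutrient replicate 4 (adjusted p = 0.0116). Coverage here was 66555 to 96255 reads. The low-nutrient level lay within that of other heads. Heads kept for 8 days at 18, 25 and 29 °C averaged 0.784, 0.811 and 0.785, heads on 5% sucrose for 8 days 0.800, and heads on 5% sucrose with 2.5 nM paraquat, as labelled, 0.768. The 1x group had the highest mean of the 7 head groups at this site, while the 18 libraries of the other 5 groups ran from 0.747 to 0.834. For scale, knockdown of Fibrillarin (Fib) in S2R+ cells, a cultured Drosophila line, differed from the lacZ control by -0.462 at Am469.

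28S Gm3324 fell by a similar amount. It has 1 guide RNA listed. Its score was 0.745, 0.738, 0.758 and 0.748 in low-nutrient replicates 1 to 4, and 0.773, 0.791, 0.811 and 0.800 in 1x replicates 1 to 4. The groups did not overlap. The means were 0.747 ± 0.00814 on low-nutrient food and 0.794 ± 0.0163 on 1x food (SD, n = 4 each), a difference of -0.0462 with a 95% interval from -0.0653 to -0.0271 (limma, adjusted p = 0.02002). Leaving out low-nutrient replicate 4 gave -0.0465 (adjusted p = 0.0416). The call was lost without low-nutrient replicate 1 (adjusted p = 0.0770), low-nutrient replicate 2 (adjusted p = 0.0536) or 1x replicate 4 (adjusted p = 0.0772). Here it was the low-nutrient group that stood at the edge: its mean was the lowest of the 7 head groups, and 3 of its 4 libraries lay below all 22 other head libraries. The other 6 groups averaged 0.794 to 0.879, and the 1x mean of 0.794 was itself at the lower end of that range. Coverage was lower than at Am469, with 15171 to 25400 reads.

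28S Gm789, also with 1 guide RNA listed, showed a smaller fall from a higher level. Its score was 0.934, 0.940, 0.933 and 0.941 in low-nutrient replicates 1 to 4, and 0.948, 0.954, 0.952 and 0.955 in 1x replicates 1 to 4. The groups did not overlap, and both spreads were narrow. The score fell to 0.937 ± 0.00417 on low-nutrient food, against 0.952 ± 0.00346 on 1x food (SD, n = 4 each), a difference of -0.0153 with a 95% interval from -0.0223 to -0.00832 (limma, adjusted p = 0.0250). The value was -0.0165 without low-nutrient replicate 4 (adjusted p = 0.0264). The call was the least stable of the 3 and was lost without low-nutrient replicates 1, 2 or 3 or 1x replicates 3 or 4 (adjusted p between 0.0536 and 0.109).

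**Figure D2:**
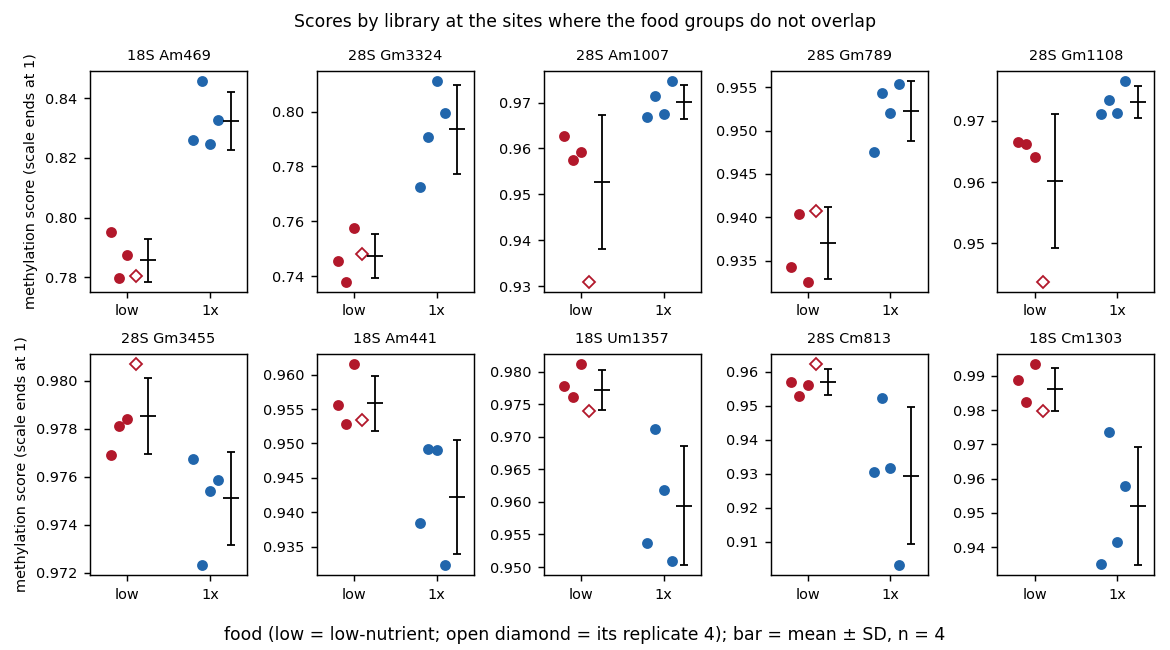
Score of each food library at the 10 sites where the groups did not overlap, low-nutrient left of 1x food, each panel on its own scale; bars are mean ± SD and the open diamond is low-nutrient replicate 4. At Am469 and Gm3324 the mean differences were -0.0466 and -0.0462, and at Gm3455, the smallest shown, 0.00345.

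At 10 of the 72 sites every low-nutrient library lay on one side of every 1x library, 5 lower and 5 higher (6.94% of sites each way). The 5 lower sites were the 3 that passed together with 28S Am1007 and 28S Gm1108, and the 5 higher ones were 18S Cm1303, 18S Um1357, 18S Am441, 28S Cm813 and 28S Gm3455. Without low-nutrient replicate 4, 5 sites were lower in this way (6.94%) and 12 higher (16.7%).

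18S Cm1303 had the largest difference upward and did not pass. Its score was 0.989, 0.982, 0.993 and 0.9796 in low-nutrient replicates 1 to 4, and 0.935, 0.973, 0.942 and 0.958 in 1x replicates 1 to 4. The low-nutrient libraries were tight and high, the 1x libraries spread out below them. The means were 0.986 ± 0.00625 on low-nutrient food and 0.952 ± 0.0172 on 1x food (SD, n = 4 each), a difference of 0.0340 with a 95% interval from 0.0149 to 0.0531 (limma, adjusted p = 0.0638, and 0.0837 without low-nutrient replicate 4, where the difference was 0.0361). All 4 low-nutrient libraries were above all 22 other head libraries, of which the 18 from other experiments ran from 0.889 to 0.979.

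18S Um1357, with 4 guide RNAs listed, had scores of 0.978, 0.976, 0.981 and 0.974 in low-nutrient replicates 1 to 4, and 0.954, 0.971, 0.962 and 0.951 in 1x replicates 1 to 4. All low-nutrient libraries were higher, with a difference of 0.0178 that did not pass (limma, adjusted p = 0.0732, and 0.0837 without low-nutrient replicate 4). 28S Cm813 had scores of 0.957, 0.953, 0.956 and 0.962 in low-nutrient replicates 1 to 4, and 0.931, 0.952, 0.932 and 0.903 in 1x replicates 1 to 4. The groups stood apart only narrowly, at 1x replicate 2, and the difference of 0.0276 did not pass (adjusted p = 0.184). Replicate 2 of the 1x food was the highest 1x library at 8 of the 10 sites with the largest differences upward. It also had the highest mean score of the 1x libraries over all 72 sites (0.952). Of all food libraries it was the highest at 15 of the 72 sites, and the other 1x libraries at 3 to 8. Without 1x replicate 2, Cm1303, Um1357 and Cm813 passed as higher, with adjusted p of 0.0125, 0.0132 and 0.0324.

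The other 7 sites with the largest differences upward were between 0.00706 (28S Cm3422) and 0.0149 (18S Cm419), and none passed. Among them 18S Am441 had 0.956 ± 0.00398 on low-nutrient food and 0.942 ± 0.00830 on 1x food (adjusted p = 0.184), with groups that did not overlap. At 18S Cm419 low-nutrient replicate 4 scored 0.926 while the other low-nutrient libraries held 0.962 to 0.963, and the difference grew to 0.0240 without it (adjusted p = 0.234). 18S Gm1952, the one site with a mean under 0.5 on 1x food, stayed little protected on both foods, at 0.0967 ± 0.0274 on low-nutrient food and 0.0845 ± 0.0469 on 1x food. The adjacent sites 18S Am[m62A]1976 and 18S Am[m62A]1977, whose names also carry a dimethylated adenosine, had differences of 0.00557 and 0.0137 on coverage of only 322 to 807 reads, and neither passed.

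The 7 sites with the largest differences downward that did not pass were between -0.0157 and -0.0325. Several of them leaned on low-nutrient replicate 4. At 18S Am425 the score was 0.916, 0.923, 0.919 and 0.847 in low-nutrient replicates 1 to 4, and 0.922, 0.936, 0.926 and 0.947 in 1x replicates 1 to 4, so that the difference of -0.0312 became -0.0131 without it. At 28S Um[Psi]2692, whose name also carries a pseudouridine, -0.0221 became -0.00435, and at 18S Um[Psi]568 -0.0261 became -0.0132. 28S Am1897 and 28S Am3006 had -0.0325 and -0.0197 in all libraries and -0.0302 and -0.0235 without it, and neither passed. Their direction turned with another deposited score of the tables (scoreA2), which gave 0.0489 at Am1897 and 0.117 at Am3006. At 28S Am1007 every low-nutrient library was lower, with 0.963, 0.957, 0.959 and 0.931 in low-nutrient replicates 1 to 4, and 0.967, 0.971, 0.967 and 0.975 in 1x replicates 1 to 4. That difference of -0.0175 (adjusted p = 0.288) was -0.0102 without replicate 4 (adjusted p = 0.0837).

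**Figure D3:**
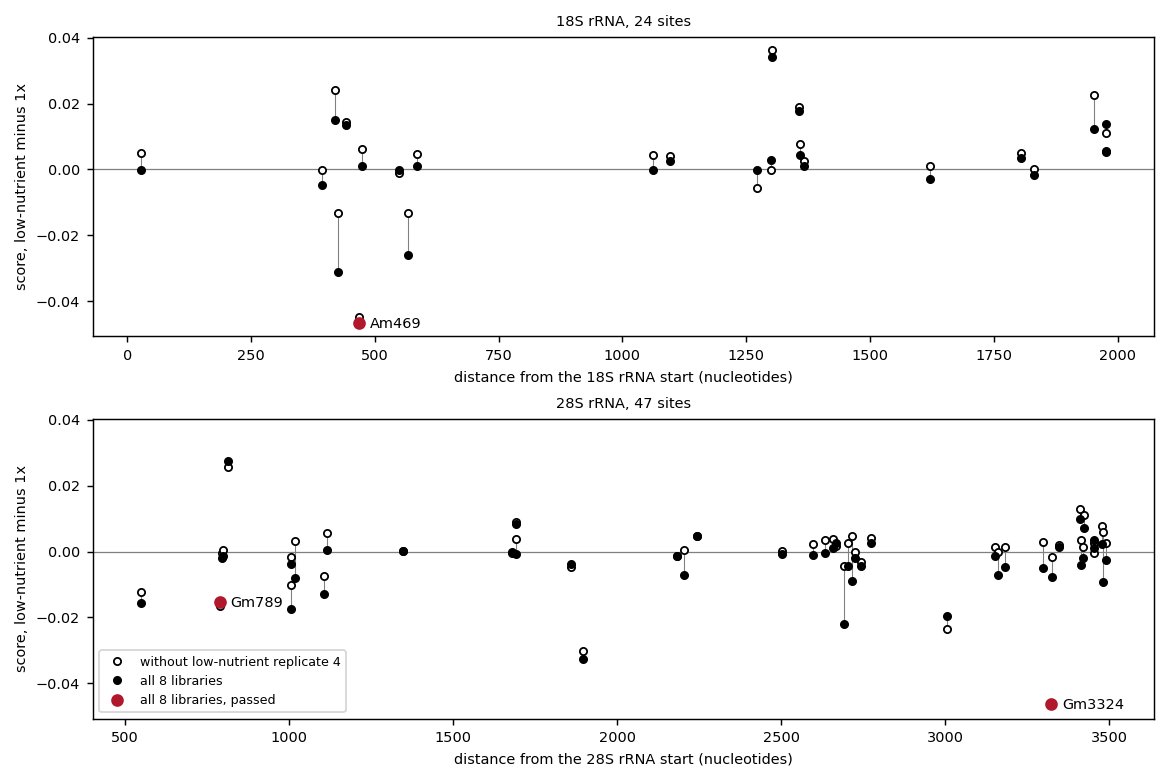
Score difference, low-nutrient minus 1x food, at each site of 18S (24 sites) and 28S rRNA (47 sites) by distance from the start of the rRNA, in all 8 libraries (filled) and without low-nutrient replicate 4 (open). The 3 sites that passed are in red, and many filled points lie below their open ones: 43 of the 72 differences were below 0 in all libraries and 24 without that library.

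The food difference was small at most sites. The median over the 72 sites was -0.000754 in all libraries and 0.00214 without low-nutrient replicate 4, and the sign was below 0 at 43 sites with that library and at 24 without it, so the sign of a small difference rested on 1 library. The 95% interval of the difference stayed within 0.02 of 0 at 41 sites, and at 53 sites without low-nutrient replicate 4. It stayed within 0.05 of 0 at 64 and 65 sites. A bound of 0.02 is wider than the called difference at 28S Gm789 (-0.0153), so it does not exclude a change of that size. The median over sites of the SD between libraries was 0.00756 on low-nutrient food (0.00271 without replicate 4) and 0.00501 on 1x food. A mean score of at least 0.9 was reached at 62 sites on low-nutrient food and 64 on 1x food, and of at least 0.98 at 30 sites (37 without replicate 4) and 31 sites. The 5 smallest score differences were at 18S Am28, 18S Am1061, 18S Am1272, 28S Am1347 and 5.8S Gm74, and the last, the only site of 5.8S rRNA, had 0.985 ± 0.00745 on low-nutrient food and 0.985 ± 0.00265 on 1x food.

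Classes of sites were described by counts and medians, to be read against the 3 sites that passed and the median of -0.000754 over all 72. In 18S rRNA 1 of 24 sites passed, 10 differences were below 0 and the median was 0.00109. In 28S rRNA 2 of 47 sites passed, 33 differences were below 0 and the median was -0.00182. The medians without low-nutrient replicate 4 were 0.00445 in 18S and 0.00149 in 28S, with 7 and 17 differences below 0. The mean score over 18S sites was 0.913 ± 0.00724 on low-nutrient food and 0.913 ± 0.00469 on 1x food, and over 28S sites 0.962 ± 0.00755 on low-nutrient food and 0.966 ± 0.00163 on 1x food (SD, n = 4 each). These differences of 0.000600 in 18S and -0.00430 in 28S were 0.00394 and -0.000683 without low-nutrient replicate 4, and none of the 4 values passed an exact permutation test (two-sided p between 0.257 and 0.857).

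By base, 1 of 28 A sites, 2 of 21 G sites, 0 of 14 C sites and 0 of 9 U sites passed. The medians were -0.000793 for A, -0.000721 for G, 0.000325 for C and -0.00410 for U. They moved with low-nutrient replicate 4, without which they were 0.00197 for A, 0.00149 for G, 0.00448 for C and -0.000211 for U, so that the medians of A and G changed sign. Of the C sites 12 of 14 differences were above 0 without low-nutrient replicate 4, and 7 of 14 with it. By annotation, all 3 sites that passed were among the 59 with a guide listed, where the median was -0.000721 (0.00271 without replicate 4). None of the 11 sites of unknown guide passed, and their median was -0.00363 (-0.00473 without replicate 4).

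Sites were also grouped by their level on 1x food. A 1x mean from 0.5 to 0.9 was found at 7 sites. Of these, 2 passed as lower (Am469 and Gm3324), 6 differences were below 0, beside 43 of all 72, and the median was -0.0157. With low-nutrient replicate 4 left out, all 7 were below 0, beside 24 of all 72, and the median was -0.0122. Among them 18S Gm1300 (-0.000163) and 28S Um3162 (-0.000211) were then close to 0 (limma, adjusted p = 0.998 each). Of the 64 sites at 0.9 or above, 1 passed (Gm789), with a median of -0.000622 in all libraries and 0.00268 without that library. These classes were set by the 1x mean, which is also 1 side of the difference, so level and difference are not independent here. In the 5 middle-level sites that did not pass, the guide is unknown, and the differences ran from -0.0325 (28S Am1897) to 0.00273 (18S Gm1300).

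The tables name a methyltransferase for a pair of adjacent nucleotides in the A loop of 28S rRNA, which holds the end of transfer RNA in the ribosome. 28S Um[Psi]3454, with CG8939 named beside it, had 0.948 on low-nutrient food and 0.947 on 1x food, and the 95% interval of that difference was -0.00859 to 0.0108. 28S Gm3455, annotated with SPB1 in yeast, scored 0.977, 0.978, 0.978 and 0.981 in low-nutrient replicates 1 to 4, and 0.977, 0.972, 0.975 and 0.976 in 1x replicates 1 to 4. The groups touched without overlapping, and the difference of 0.00345 did not pass (adjusted p = 0.541). Scores of adjacent sites can draw on the same neighbouring positions.

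Sites near the called ones, or sharing a guide with them, did not pass. 18S Am469 shares 1 of its guides with 18S Gm475, 6 nucleotides away, where the difference was 0.000938 with a 95% interval from -0.0149 to 0.0167. 28S Gm3326, 2 nucleotides from Gm3324 and listed with the same guide, had a difference of -0.00778 (limma, adjusted p = 0.817). 28S Am796 and 28S Am799, the sites next after Gm789, had -0.00200 and -0.00134. In all, 23 of the 109 guide identifiers in the tables are listed for more than 1 site, which ties 24 sites into 15 pairs. With all libraries the food difference had the same sign in 6 of the 15. The pairs were not counted without low-nutrient replicate 4, which moved many of these signs. Of the 24 sites, 14 differences were below 0 with that library and 7 without it, beside 43 and 24 of all 72. The one guide that the reference gene table named, snoRNA:Me18S-G1358c on chromosome arm 3L, is listed for 18S Um1357 and 18S Gm1359, whose differences were 0.0178 and 0.00440 with neither passing.

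Read ends over coverage at the site itself give a second view, which does not use neighbouring positions but comes from the same libraries. For each site the 5′ and 3′ ends together were divided by coverage and, for the test, taken to log2 and centred on each library's median site. At a given site, more methylation leaves fewer ends. Across the 72 sites the score difference and this rate difference ran opposite ways, with Pearson's r = -0.711 and Spearman's rho = -0.867, and since both draw on the same ends the 2 are not independent.

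At 18S Cm1303 there were 0.856, 1.37, 0.553 and 1.56 ends per 1000 reads in low-nutrient replicates 1 to 4, and 5.83, 2.32, 5.08 and 4.47 in 1x replicates 1 to 4. Every low-nutrient library had fewer ends than every 1x library, and the counts behind these rates were 22 to 269 ends. The mean rate fell to 1.085 ± 0.462 on low-nutrient food, against 4.43 ± 1.51 on 1x food (SD, n = 4 each), a centred log2 difference of -2.02 (limma, adjusted p = 7.64e-16, and 1.38e-05 without low-nutrient replicate 4). The fit of all 8 libraries gave every site the same spread, so its smallest p-values take no account of how variable a site is. Without low-nutrient replicate 4 the spread was not common, with standard errors of 0.234 at Cm1303 and 0.161 at Um1357. The p-values with and without that library are therefore not like for like.

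In this rate 4 of 72 sites passed as lower (5.56%), Cm1303 among them, and none passed as higher (0%). Without centring on the median site Cm1303 alone passed (1.39%), and the adjusted p of the other 3 lay between 0.0790 and 0.126. At 18S Um1357 there were 3.55, 3.85, 3.12 and 3.87 ends per 1000 reads in low-nutrient replicates 1 to 4, and 7.63, 4.69, 6.24 and 8.98 in 1x replicates 1 to 4, a centred log2 difference of -0.95 (adjusted p = 0.000723, and 0.00363 without low-nutrient replicate 4). At 28S Am1691 there were 0.705, 0.780, 0.645 and 0.854 in low-nutrient replicates 1 to 4, and 2.45, 0.874, 1.61 and 1.72 in 1x replicates 1 to 4, a centred log2 difference of -1.05 (adjusted p = 0.000144, and 0.00672 without low-nutrient replicate 4). Replicate 2 of the 1x food lay closest to the low-nutrient libraries at both. 28S Cm813 had 2.06 to 2.35 ends per 1000 reads on low-nutrient food and 2.51 to 4.71 on 1x food, with a centred log2 difference of -0.72 (adjusted p = 0.0271) that did not pass without low-nutrient replicate 4 (-0.53, adjusted p = 0.112).

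The 3 sites that passed on the score had more ends in every low-nutrient library, by smaller factors. At 18S Am469 there were 23.4, 25.1, 24.6 and 25.3 ends per 1000 reads in low-nutrient replicates 1 to 4, and 20.4, 18.4, 20.9 and 20.4 in 1x replicates 1 to 4. The groups did not overlap, and the mean rate on low-nutrient food was 1.23 times that on 1x food. The ratio was 1.29 at 28S Gm3324, with 20.6 to 21.1 ends per 1000 reads on low-nutrient food and 14.8 to 18.1 on 1x food, and 1.28 at 28S Gm789, with 7.60 to 8.97 on low-nutrient food and 6.14 to 6.85 on 1x food. None of these passed in the fit with its single common spread (centred log2 differences of 0.23, 0.30 and 0.28, adjusted p between 0.647 and 0.718). The differences were larger without low-nutrient replicate 4, at 0.37, 0.45 and 0.48, and still did not pass (limma, adjusted p between 0.128 and 0.187). When 5′ ends alone were taken, which leaves out the 3′ ends of which low-nutrient replicate 4 had the most, Gm3324 and Gm789 passed as higher (0.56 and 0.57, adjusted p = 0.0349 each) and Am469 did not (0.42, adjusted p = 0.130). Both calls were lost without low-nutrient replicate 4, where the values were 0.55 and 0.64 (adjusted p = 0.101 and 0.0618).

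In 5′ ends alone 3 sites were higher (4.17%; Gm3324, Gm789 and 28S Am2183) and 4 lower (5.56%; Cm1303, Um1357, Am1691 and 18S Am1272). Without low-nutrient replicate 4 none was higher (0%) and Cm1303 and Am1691 were lower (2.78%). In 3′ ends alone Cm1303 was the single site that passed (1.39% lower, 0% higher). Without low-nutrient replicate 4 Cm1303 and Um1357 were lower (2.78%) and 4 sites higher (5.56%), namely 18S Am469, 18S Am1272, 28S Am1007 and 28S Um1859.

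18S Am1272, a site of unknown guide whose score hardly differed between the foods, had 5′ and 3′ ends that ran opposite ways. It had 57, 56, 47 and 39 of the 5′ ends in low-nutrient replicates 1 to 4, and 162, 75, 190 and 76 in 1x replicates 1 to 4. Every low-nutrient library had fewer than every 1x library, and the rate of 5′ ends differed by -0.83 on the centred log2 scale (limma, adjusted p = 0.0349, and 0.0773 without low-nutrient replicate 4). The 3′ ends numbered 539, 415, 335 and 303 in low-nutrient replicates 1 to 4, and 292, 387, 422 and 250 in 1x replicates 1 to 4. Their groups overlapped, and the rate of 3′ ends differed by 0.44 (adjusted p = 0.365), and by 0.68 without low-nutrient replicate 4 (adjusted p = 0.0356). Both kinds of end together differed by 0.08 (adjusted p = 0.978).

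**Figure D4:**
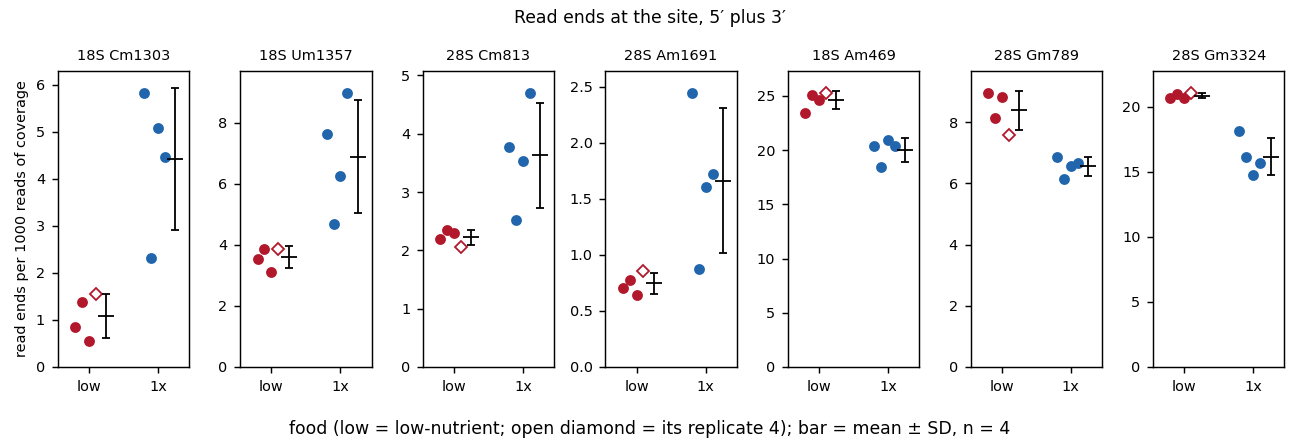
Read ends, 5′ plus 3′, per 1000 reads of coverage in each food library at 7 sites, low-nutrient left of 1x food, each panel on its own scale; bars are mean ± SD and the open diamond is low-nutrient replicate 4. Cm1303, Um1357, Am1691 and Cm813 had fewer ends in every low-nutrient library, and Am469, Gm3324 and Gm789 had more.

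The food difference was then set against that of temperature, from heads kept for 8 days at 29 or 18 °C (4 libraries each), which shares no library with it. At 14 sites the score was higher at 29 than at 18 °C (19.4% of sites) and at 1 site lower (1.39%). Of those 14 sites 1 passed as lower on low-nutrient food (Gm789), beside 3 of all 72. Their food differences were below 0 at 8 sites with a median of -0.000419, and at 6 sites with a median of 0.00106 without low-nutrient replicate 4. Across the 72 sites the food and temperature differences had the same sign at 35, with r = 0.124 and rho = 0.129, and at 34 without that library, with r = 0.122 and rho = 0.00794.

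A direct test of food difference minus temperature difference passed at 4 sites, all with the food difference the lower (limma, 5.56% of sites; 0% the other way). At 28S Gm789 the score fell by 0.0153 on low-nutrient food and was 0.0471 higher at 29 than at 18 °C, and the difference between these was -0.0624 with a 95% interval from -0.0841 to -0.0407 (adjusted p = 0.00101). At 28S Gm2243 the food difference was 0.00471 and the temperature difference 0.0393, with -0.0346 between them (adjusted p = 5.24e-05). 28S Gm2502 and 28S Cm2744 followed with -0.0206 each (adjusted p = 0.00174 and 0.00183), in both cases with a food difference that did not pass. At Am469 and Gm3324 the temperature difference was close to 0, and the test gave -0.0473 and -0.0446 without passing (adjusted p = 0.0611 and 0.170). With low-nutrient replicate 4 left out, 8 sites passed, the same 4 among them, 7 with the food difference the lower (9.72%) and 1 with it the higher (1.39%).

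The same test against paraquat minus sucrose heads (3 libraries each, kept for 8 days) passed at 2 sites, 1 in each direction (1.39% each). One was Gm3324, lower on low-nutrient food and at a mean of 0.879 in paraquat heads, against 0.853 in sucrose heads (n = 3 each), with -0.0724 between the comparisons (95% interval from -0.104 to -0.0410, adjusted p = 0.0113, and 0.0260 without low-nutrient replicate 4). The other was Um[Psi]3454, with 0.0491 between them (adjusted p = 0.00624, and 0.0171 without that library). The food difference there was only 0.00108, so most of the 0.0491 lay in a lower score in paraquat than in sucrose heads. For the knockdown of Fibrillarin in S2R+ cells, 58 sites passed as lower (80.6%). Of these, 2 passed as lower on low-nutrient food, Am469 and Gm789, beside 3 of all 72, and Gm3324 was not among the 58. The median food difference over the 58 was -0.000754, with 35 below 0, and 0.00259 without low-nutrient replicate 4, with 15 below 0. Cells and heads differ in source, so these values are given side by side with no test.

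**Figure D5:**
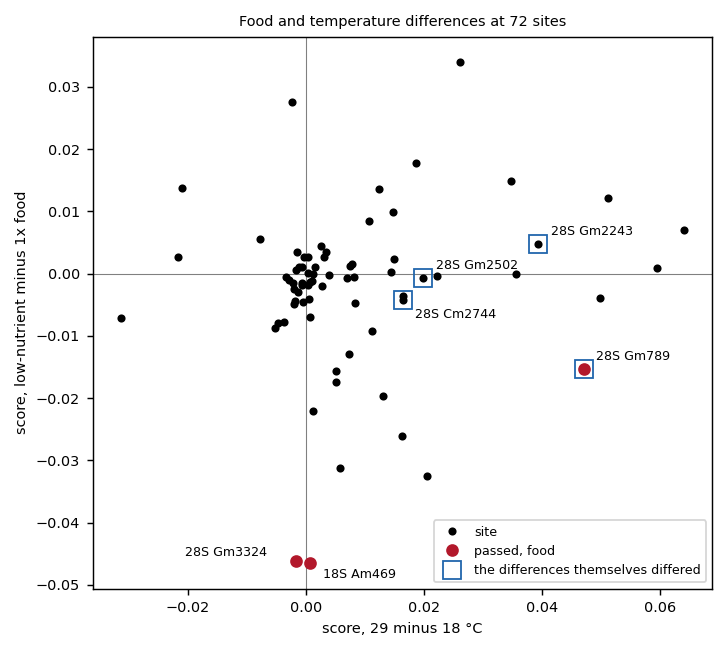
Score difference on low-nutrient minus 1x food against the difference at 29 minus 18 °C, 1 point per site (72 sites), with the 3 sites that passed for food in red and the 4 where the differences themselves differed in squares. Points scatter around both zero lines (r = 0.124), and Gm789 lies at -0.0153 for food and 0.0471 for temperature.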

How the data were processed

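RiboMeth-seq libraries of fly heads were made from 150 ng of total RNA hydrolysed for 16 min at 96 °C and read in single 50-base reads, per the labels' protocols, whose text names only S2R+ cells. Trimmomatic 0.39, Bowtie2 and dm6 are named in the submitters' processing notes without roles. The authors deposited per site a level score, 2 other scores, the coverage signal and the signal of 5′ and 3′ read ends, where 0.1 stands for none (35 of 576 values of 5′ ends in the food libraries). How the score is calculated is not stated in the labels or file headers, and neighbouring positions were not analysed here, so no score was recomputed and counting intervals were not computed. At 26 sites a second name carries another number. No sequence and no genome coordinate was used.

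Scores were tested as deposited, on 8 food libraries, with limma 3.58.1 in R 4.3.3 (lmFit, eBayes, two-sided, Benjamini-Hochberg over 72 sites, threshold 0.05). Read ends per 1000 reads of coverage were tested as log2 with 0.1 added. The common spread of that fit follows from infinite prior degrees of freedom. Single values per library had exact permutation tests over all regroupings (Python 3.11.15, scipy 1.17.1, numpy 2.4.6, pandas 2.3.3, matplotlib 3.10.9). The scripts were tested on simulated data.

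Sites named were those that passed, the 10 largest differences in each direction, the 5 smallest p-values and the 5 smallest differences, with the A-loop, dimethylated, neighbouring and guide-sharing sites. Gm1108, Gm1300, Am2183, Um1859, Gm2243, Gm2502, Cm2744, Um3162, Cm3480 and the neighbours of called sites outside that rule were named after their values were seen. The members, classes and lists were chosen with earlier results of these data known. In the 12 pairs of libraries within a food, read ends differed beyond sampling noise (chi-square over its degrees of freedom 1.91 to 22.9, highest p = 4.65e-09), so each was counted once. Alternatives were other deposited scores, log2 odds, centring, weights, a covariate, a replicate block, a coverage minimum of 10000 reads, all heads in 1 fit, and leaving out each library.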

Additional observations from a re-analysis of the deposited data

Results flagged for a closer look

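In 64 groups of values, each the 4 libraries of 1 food at a named site or for 1 library measure, the highest or lowest library was set against the other 3, a test that chance meets in about 1 group in 20. Low-nutrient replicate 4 stood far below the other low-nutrient libraries in 7 groups, and no other library did. Its score was 0.926 at 18S Cm419, where the other 3 lay between 0.962 and 0.963. It was 0.847 at 18S Am425, with the others between 0.916 and 0.923, and 0.972 at 18S Am1061, with the others between 0.988 and 0.990. At 28S Am1007 it was 0.931, with the others between 0.957 and 0.963, and at 28S Um[Psi]2692 0.902, with the others between 0.969 and 0.977. At 28S Cm3422 it was 0.946, with all 3 others at 0.963. The log2 balance of 5′ to 3′ read ends was -1.002, with the others between -0.22 and -0.10. The 7 values come from 1 library and are not independent of each other. The balance was also the value by which this library was set apart. Several of the sites were named for differences that it moved. The 7 groups are therefore not to be read against the share that chance meets. The part of the read-end balance in these scores was not tested.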

How the results depend on the processing

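The 3 falls kept their direction in all 19 other settings, and Am469 passed in 16 of them (adjusted p 0.00191 to 0.0774), Gm3324 in 11 (0.00448 to 0.174) and Gm789 in 8 (0.00581 to 0.279). The count of sites lower was 0 with the log2 odds of the score, 1 with the second deposited level score (named scoreA2), 1 with all heads in 1 fit, and 1 to 3 when single libraries were left out. Settings chosen after seeing the data gave 0 without both replicates 4, and 0 with all heads but low-nutrient replicate 4. The count of sites higher was 2 when centred on the library median, 2 with array weights, 1 with the deposited mean score, 1 with all heads, and 0 to 3 without single libraries. The labels do not state that replicate numbers pair the libraries. Deviations of libraries with the same number correlated at -0.117 to 0.162, and 1 library was best with its own number, which does not exclude a pairing. The replicate block gave 3 sites lower, the same ones, and 0 higher. In the read-end rate, sites higher were 3 with 5′ ends alone, 2 with the replicate block, 1 with the coverage minimum, 1 with a mean-variance trend (chosen after seeing the data) and 0 to 1 without single libraries. Settings without low-nutrient replicate 4 that were also chosen after seeing the data gave 0 higher and 2 lower with 5′ ends alone, 4 higher and 2 lower with 3′ ends alone, and 0 higher and 1 lower without centring. Sites lower were 1 without centring, 1 with 3′ ends alone and 3 to 4 without single libraries. Sites whose food and temperature differences departed were 8 with log2 odds, 2 when centred, 2 against paraquat (2 also without low-nutrient replicate 4, chosen after seeing the data) and 4 to 8 without single libraries.

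The difference in mean score changed sign with scoreA2 (0.000790), without low-nutrient replicate 4 (range without single libraries -0.00483 to 0.000921) and without both replicates 4 (9.42e-05). That of the log2 balance ran from -0.19 to 0.11 without single libraries and was -0.37 as a median over sites (exact p = 0.343). Of 470 values at 25 named sites, 397 kept direction and call, 22 lost the call, 8 gained it and 43 changed sign, none of them a site that passed. At 18S Am28 the sign changed with log2 odds (0.00741), centring (0.00111), scoreA2 (0.00546), the mean score (0.000119), weights (0.000889), the balance as covariate (0.00239), without both replicates 4 (0.00202), with all heads but low-nutrient replicate 4 (0.00502), and without single libraries (-0.00360 to 0.00502). At 18S Am1061 it did so with log2 odds (0.0171), centring (0.00136), weights (0.00216), the covariate (0.00211), without both (0.00209), with all heads but that library (0.00435), and without single libraries (-0.00231 to 0.00435). At 18S Am1272 the values were 0.000686 with log2 odds, 0.00135 centred, 0.000399 with scoreA2, 0.000909 with the mean score and -0.00552 to 0.00535 without single libraries. With scoreA2 28S Am549 gave 0.0231, 28S Am1897 0.0489 and 28S Am3006 0.117. Without single libraries 18S Gm1952 ran from -0.00955 to 0.0278, 28S Am1347 from -0.000228 to 0.000406 and 5.8S Gm74 from -0.00155 to 0.00392, and Gm74 was -4.39e-05 with the mean score. The cause was not tested. Coverage limits the pair of dimethylated 18S sites, and few ends remain at some of the sites with scores near 1.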
